A study of Mus musculus with 12 samples.

Results

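The solute carriers are the genes whose symbols start with Slc and a digit, and the set described here holds those that were expressed in cultured mouse CD8+ T cells. A member was a gene with a probe set of exactly 1 gene symbol on the array and a mean of at least 5 on the log2 scale in at least 1 of the 4 groups, the probe set with the highest mean being used where a gene had several. Of 22180 genes with such a probe set, 361 were solute carriers, and 162 of these were members, while 199 stayed below the level in every group. The members were thus chosen by the group means that are compared below, and of the members 148 passed it in all 4 groups, 6 in 2 or 3 groups and 8 in a single group. Those 8 were Slc16a5, Slc25a25 and Slc30a2, which passed only through Tc17 STAT3-/- cells, Slc4a11, Slc22a12, Slc25a47 and Slc46a1, which passed only through Tc17 WT cells, and Slc26a11, which passed only through Tc1 WT cells. Just inside the level lay Slc25a47, Slc25a25 and Slc26a11, with highest group means of 5.002, 5.031 and 5.055, and just outside it lay Slc38a8, Slc24a1 and Slc66a1, with 4.98, 4.98 and 4.93.

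The cells were naive CD8+ T cells of the spleen, either WT or carrying STAT3fl/fl alleles deleted by Cd4cre (STAT3-/-), a Cre driven by the Cd4 promoter and so active in the T cell lineage before the cells were isolated. WT and STAT3-/- cells were mixed in equal parts, activated for 4 days (anti-CD3, 1 µg/ml, with anti-CD28, 3 µg/ml), and separated again by their allelic markers, so both genotypes of a mixture shared 1 culture. IL-6 and TGFb gave Tc17 cells and IL-12 gave Tc1 cells, with 3 days in these cytokines and 1 further day in IL-2. The 4 groups were Tc17 STAT3-/-, Tc17 WT, Tc1 STAT3-/- and Tc1 WT, each with 3 arrays: biological replicate 1, biological replicate 2 and a technical array of replicate 2, which was averaged with it to leave 2 samples per group. Sex and age of the mice, and whether the replicates came from separate animals or cultures, are not given in the labels, so a p-value here covers only how far these samples scatter, and that scatter may be technical.

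Solute carriers are membrane proteins that move amino acids, sugars, nucleosides, vitamins, metals and ions along or against their gradients, across the plasma membrane or into mitochondria, the Golgi, lysosomes and vesicles. An activated T cell grows and divides quickly, and it is known for raising its uptake of glucose through Slc2a1, of glutamine through Slc1a5 and of large neutral amino acids through the pair of Slc7a5 with Slc3a2. STAT3 is the transcription factor that IL-6 activates and that Il17a and Il17f need, and the comparison of the genotypes asks which transporter genes depend on it in each culture.

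Stat3 averaged 7.78 in Tc17 STAT3-/- cells and 10.63 in Tc17 WT cells, and 7.37 in Tc1 STAT3-/- cells and 10.04 in Tc1 WT cells, with no overlap between genotypes on any array, as fits the labels, though whether its probe set lies in the deleted part is not given. The labelled cell type was borne out by Cd8a, Cd8b1, Cd3e, Cd3g and Cd3d, which averaged 9.26 or more in every group, while Il17a averaged 4.56 in Tc17 STAT3-/- cells and 8.33 in Tc17 WT cells. The 3 Tc1 markers moved with genotype in the Tc17 cultures: Ifng, Tbx21 and Gzmb were higher in Tc17 STAT3-/- than in Tc17 WT cells by 2.35, 0.63 and 0.93 (adjusted p = 3.85e-06, 0.00323 and 0.000275), and their part in the transporter results was not tested. Of the markers of other cell types, Cd79a, Ms4a1, Lyz2, Csf1r, Itgam, Adgre1, Ncr1, Klrb1c and Epb42 were below 5 in all groups, while 2 of 2 CD4 T cell markers, 1 of 3 B cell markers and 1 of 5 myeloid markers passed the level. Cd4 and Zbtb7b averaged 5.08 to 5.34 and 6.13 to 6.28 over the 4 groups and were not called in any comparison. The others were Cd79b, with 7.56 in Tc17 STAT3-/- and 6.78 in Tc17 WT cells, and Cd68, with 6.80 and 7.92 in the same order; the part of either in the results was not tested, and in such bulk samples fewer cells of a type and less RNA per cell cannot be told apart. The technical array of Tc17 WT stood apart from the rest: the median of its correlations with the other 11 was 0.971, where each of those had 0.984 or more, and the median of the members on it was 6.39, against 6.67 to 6.88 on the other 11.

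The promoters of 128 of the 162 members were found in a RefSeq table of windows on GRCm38.p6, each running from 250 bases before to 50 bases after a transcription start. No window of Slc4a11, Slc39a14, Slc14a1 or Slc52a3 was used here. Shown are the windows of Slc15a1 and Slc2a6, the members with a window that were lowest in Tc17 STAT3-/- cells against Tc17 WT cells, and of Slc25a45, the highest one. Slc28a2, Slc46a3 and Slc43a1, which were higher by smaller amounts, are shown because their windows hold a match to a motif, and so were chosen after the search. Both strands were searched for the palindromes TTCNNNGAA, the letters STAT proteins bind, and CACGTG, the E-box, which cannot overlap each other, and matches to these are in capitals.
Slc15a1: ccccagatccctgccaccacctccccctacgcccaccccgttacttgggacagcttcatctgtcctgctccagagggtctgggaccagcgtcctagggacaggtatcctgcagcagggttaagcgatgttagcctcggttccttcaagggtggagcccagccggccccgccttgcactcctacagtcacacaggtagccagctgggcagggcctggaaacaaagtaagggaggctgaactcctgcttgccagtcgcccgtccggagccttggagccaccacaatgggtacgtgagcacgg
Slc2a6: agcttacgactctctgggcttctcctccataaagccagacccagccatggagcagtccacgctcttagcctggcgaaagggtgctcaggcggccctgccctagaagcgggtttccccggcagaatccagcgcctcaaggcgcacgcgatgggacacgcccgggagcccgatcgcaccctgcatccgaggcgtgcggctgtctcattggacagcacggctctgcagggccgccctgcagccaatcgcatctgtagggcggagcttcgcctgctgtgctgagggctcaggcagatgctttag
Slc25a45: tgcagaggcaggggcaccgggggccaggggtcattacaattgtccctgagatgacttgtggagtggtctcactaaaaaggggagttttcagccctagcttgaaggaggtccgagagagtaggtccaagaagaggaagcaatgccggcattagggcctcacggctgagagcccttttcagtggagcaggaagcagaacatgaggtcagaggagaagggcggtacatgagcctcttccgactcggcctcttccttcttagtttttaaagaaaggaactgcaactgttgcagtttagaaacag
Slc28a2: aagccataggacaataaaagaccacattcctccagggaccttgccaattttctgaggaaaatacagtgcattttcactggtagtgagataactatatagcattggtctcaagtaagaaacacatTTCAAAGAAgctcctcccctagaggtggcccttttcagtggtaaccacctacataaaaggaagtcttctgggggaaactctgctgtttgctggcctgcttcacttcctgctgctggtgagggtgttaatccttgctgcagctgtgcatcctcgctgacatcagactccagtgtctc
Slc46a3: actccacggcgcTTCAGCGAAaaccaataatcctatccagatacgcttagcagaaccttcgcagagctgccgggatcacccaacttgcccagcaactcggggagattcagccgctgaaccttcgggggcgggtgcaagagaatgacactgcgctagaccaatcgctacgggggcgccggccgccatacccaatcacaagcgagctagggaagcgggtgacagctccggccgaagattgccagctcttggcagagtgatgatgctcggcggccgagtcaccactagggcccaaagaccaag
Slc43a1: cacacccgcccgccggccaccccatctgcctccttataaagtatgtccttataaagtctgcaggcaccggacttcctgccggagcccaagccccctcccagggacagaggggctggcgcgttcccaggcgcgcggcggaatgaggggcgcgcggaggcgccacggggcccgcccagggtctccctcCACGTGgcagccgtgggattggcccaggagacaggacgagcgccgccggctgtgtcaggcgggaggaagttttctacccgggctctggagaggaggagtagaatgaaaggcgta
The windows, on the strand of the gene, are chr14:121505205-121505504 on the minus strand for Slc15a1, chr2:27027949-27028248 on the minus strand for Slc2a6, chr19:5877572-5877871 on the plus strand for Slc25a45, chr2:122426185-122426484 on the plus strand for Slc28a2, chr5:147894766-147895065 on the minus strand for Slc46a3 and chr2:84840073-84840372 on the plus strand for Slc43a1. The match to TTCNNNGAA began 126 bases before the start of Slc28a2 and 238 bases before that of Slc46a3, and these were the only matches among 39 windows of members that were higher in Tc17 STAT3-/- cells. Among the 10 windows of members that were lower there was none. Over all 164 windows of the members 4.88% held TTCNNNGAA, against 8.3% of all 32851 windows of the table. CACGTG stood in 15.2% of the members' windows and in 7.15% of all windows, with matches for Slc20a1, Slc25a15, Slc29a1, Slc30a5 and Slc43a1 among the higher members and for Slc39a8 among the lower ones. The windows of Slc15a1, Slc2a6, Slc25a45, Slc35g1, Slc25a16, Slc26a10 and Slc31a1 held no match to either palindrome. TGCNCNC, the core that the metal-sensing factor MTF1 binds, searched on both strands and not capitalised, stood in 59.1% of the members' windows and 51.0% of all windows. A match describes letters only and is no measurement of binding.

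In Tc17 cells, 43 of the 162 members differed between STAT3-/- and WT cells in limma's test with Benjamini-Hochberg adjustment over all 9862 genes tested (adjusted p below 0.05). They made up 26.5% of the members, against 25.1% of all genes tested, so the share of transporters that changed was near that of all genes. By direction, 31 were higher (18.2% of all genes) and 12 lower (6.83%) in Tc17 STAT3-/- cells. The median log2 change was 0.13 over the members and 0.11 over all genes tested, and the split of directions moved with the scaling: with the median of each array subtracted, 20 were higher and 19 lower, with quantile normalization 22 and 16, and with cyclic loess 22 and 17. Of the 162 members, 4 were called with a change of 2-fold or more, Slc4a11 and Slc15a1 downward and Slc14a1 and Slc52a3 upward. Over all genes tested 3.09% were called with such a change, 1.46% upward and 1.63% downward. Slc4a11 and Slc30a2 had passed the level filter through 1 of the compared groups alone, so their change is bound up with how they were chosen.

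**Figure D1:**
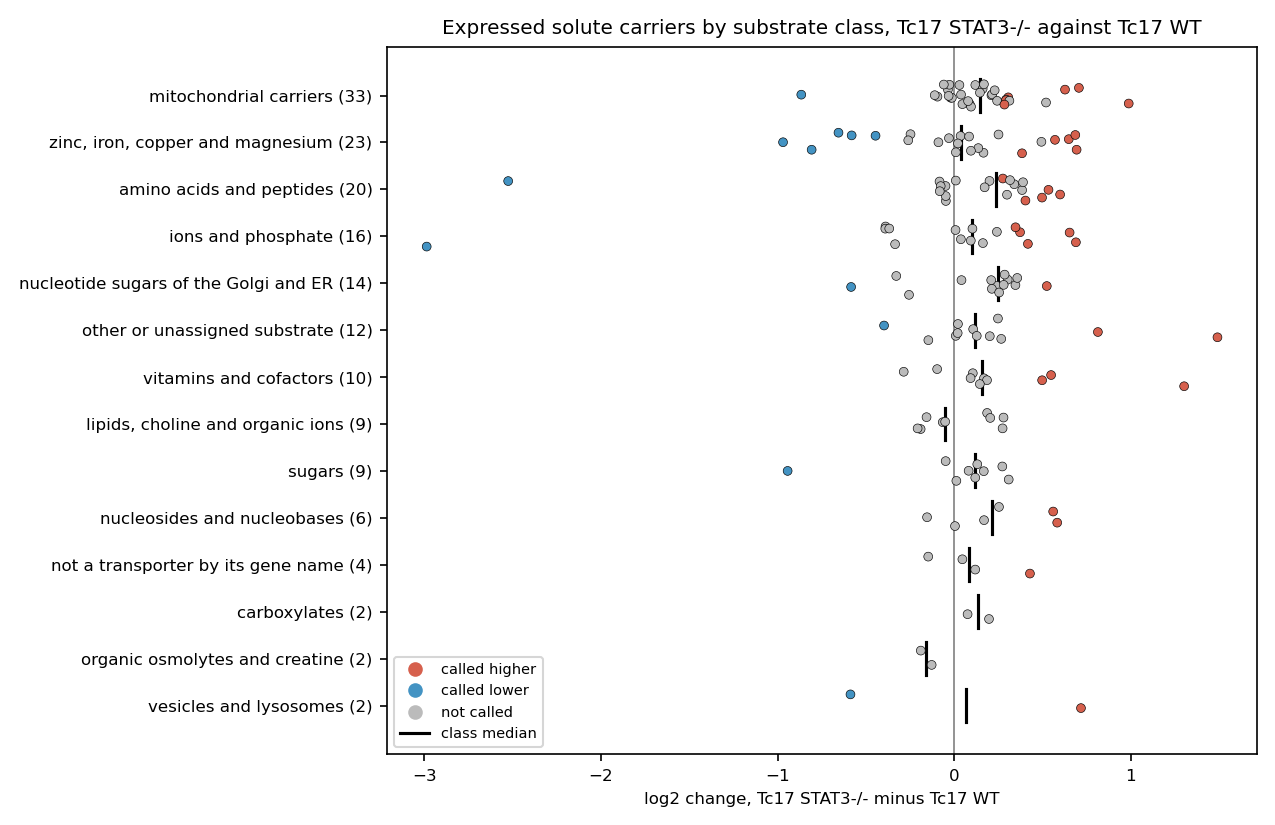
The log2 change of each member in Tc17 STAT3-/- minus Tc17 WT cells is on the horizontal axis, with 1 row per substrate class and the number of members in brackets. Red points are the 31 members called higher, blue points the 12 called lower, grey points those not called, and black lines the class medians. Slc4a11 and Slc15a1 lie far to the left of all other members.

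The steepest fall was in Slc4a11, a relative of the bicarbonate transporters that carries protons, ammonia or borate. On biological array 1, biological array 2 and the technical array it read 4.80, 4.56 and 5.15 in Tc17 STAT3-/- cells, 7.85, 7.71 and 7.86 in Tc17 WT cells, 4.81, 4.85 and 4.83 in Tc1 STAT3-/- cells, and 5.05, 4.99 and 4.68 in Tc1 WT cells. It was high on the 3 Tc17 WT arrays alone, and the other 3 groups overlapped near the level filter. The log2 change in Tc17 cells was −2.99 ± 0.10 (SE, 2 samples per group, adjusted p = 4.69e-07). Slc15a1 encodes the proton-driven carrier that takes up dipeptides and tripeptides, best known from the intestine. In the same array order it read 5.45, 5.45 and 5.60 in Tc17 STAT3-/- cells, 8.06, 8.40 and 7.52 in Tc17 WT cells, 4.52, 4.25 and 4.10 in Tc1 STAT3-/- cells, and 4.92, 4.73 and 4.40 in Tc1 WT cells. Here the 4 groups did not run together: Tc17 WT was highest, Tc17 STAT3-/- lay between it and the Tc1 groups, and the change between genotypes in Tc17 cells was −2.52 ± 0.15 (adjusted p = 1.04e-05).

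**Figure D2:**
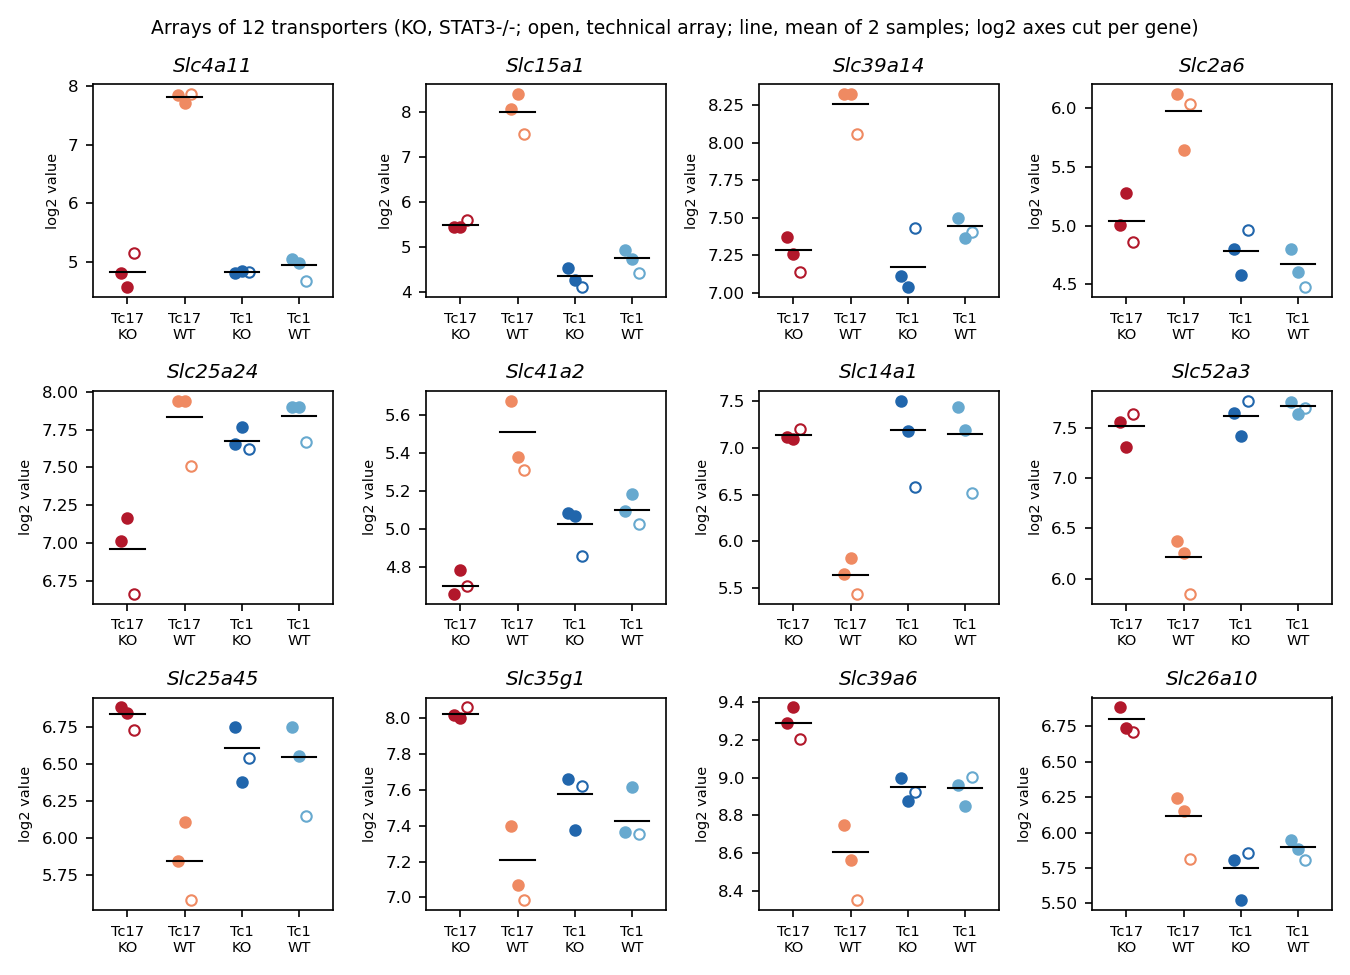
Each panel shows 1 transporter, with its log2 value on every array of the 4 groups. Filled points are biological arrays, open points technical arrays and lines the mean of the 2 samples, and each vertical axis is cut to the range of its gene and does not start at 0. In the first 6 panels Tc17 STAT3-/- lies below Tc17 WT, and in the last 6 above it.

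Among the sugar carriers 1 of 9 members, Slc2a6, passed the test, and the glucose importers that T cells are known for did not. Over all genes tested 25.1% passed. Slc2a6, a glucose transporter relative found on lysosomes, read 5.005, 5.27 and 4.86 in Tc17 STAT3-/- cells against 6.12, 5.65 and 6.03 in Tc17 WT cells, and the genotypes did not overlap. Its change was −0.94 ± 0.12 (adjusted p = 0.000998). Tc1 STAT3-/- cells read 4.80, 4.58 and 4.96 and Tc1 WT cells 4.80, 4.61 and 4.48. Slc2a1, the main glucose importer of activated T cells, read 10.70, 10.63 and 10.80 in Tc17 STAT3-/- cells and 10.83, 10.74 and 10.61 in Tc17 WT cells, a change of −0.05 with a 95% interval of −0.27 to 0.17. Slc2a3, the high-affinity neuronal-type importer and the class member with the highest group mean, had an interval of −0.11 to 0.65 around 0.27. The 2 lactate and pyruvate carriers of the carboxylate class were not called either, with 0.20 for Slc16a1 (−0.09 to 0.48) and 0.08 for Slc16a3 (−0.15 to 0.30).

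The metal transporters were the class with the most members called lower, 5 of 23, and 5 more were called higher, around a class median of 0.04. Over all genes tested 18.2% were higher and 6.83% lower. Under the 3 scalings named above the class median was −0.08, −0.01 and −0.07, so it has no settled sign. The calls were 3 higher and 6 lower with the array median subtracted, and 4 and 6 with quantile normalization. As deposited, the 5 lower members were importers of the Slc39 family, magnesium carriers and a vesicle zinc exporter. Slc39a14, which imports zinc, manganese and iron, read 7.37, 7.26 and 7.14 in Tc17 STAT3-/- cells, 8.32, 8.32 and 8.06 in Tc17 WT cells, 7.11, 7.04 and 7.43 in Tc1 STAT3-/- cells and 7.50, 7.37 and 7.41 in Tc1 WT cells. All 3 Tc17 WT arrays lay above every other array, and the change in Tc17 cells was −0.97 ± 0.10 (adjusted p = 0.000362). Slc39a8, its close relative with the same metals, fell by less, −0.45 ± 0.09 (adjusted p = 0.00655), and without replicate 1 of Tc17 STAT3-/- its adjusted p was 0.0655. The magnesium carriers Slc41a2 and Slc41a1 changed by −0.81 ± 0.12 and −0.58 ± 0.09 (adjusted p = 0.00183 and 0.00272), while Slc41a3 of the same family had 0.01. Slc41a2 read 4.66, 4.78 and 4.70 in Tc17 STAT3-/- cells, under the level filter, and 5.67, 5.38 and 5.31 in Tc17 WT cells. Slc30a4, which loads zinc into vesicles, fell by 0.66 (adjusted p = 0.00502, and 0.0549 without replicate 2 of Tc17 STAT3-/-).

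The metal transporters that were higher in Tc17 STAT3-/- cells also belonged to the zinc families and to copper uptake. Slc39a6, a zinc importer of the plasma membrane and the class member with the highest group mean, read 9.29, 9.37 and 9.21 in Tc17 STAT3-/- cells and 8.75, 8.56 and 8.35 in Tc17 WT cells, with no overlap (0.69 ± 0.11, adjusted p = 0.00284). Slc39a9, a zinc carrier of the Golgi, changed by 0.69 ± 0.13 (adjusted p = 0.0056, and 0.0519 without replicate 1 of Tc17 STAT3-/-). Slc31a1, the copper importer, read 7.93, 7.99 and 7.97 against 7.41, 7.71 and 6.70 in Tc17 WT cells, where the technical array was well below biological array 2. Its change was 0.65 ± 0.10 (adjusted p = 0.0019), and the call held in all 21 alternatives, the one without that array included. Slc30a2 and Slc30a5, which move zinc into vesicles and the Golgi, gave 0.57 and 0.38 (adjusted p = 0.0248 and 0.029). Slc30a2 averaged 5.27 in Tc17 STAT3-/- and 4.70 in Tc17 WT cells. It had passed the level filter through Tc17 STAT3-/- alone, so its change is bound up with how the members were chosen. The call of Slc30a5 was lost in 8 of 21 alternatives, the 3 scalings among them. Slc11a2, the iron carrier of endosomes, had 0.04 with an interval of −0.26 to 0.33.

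**Figure D3:**
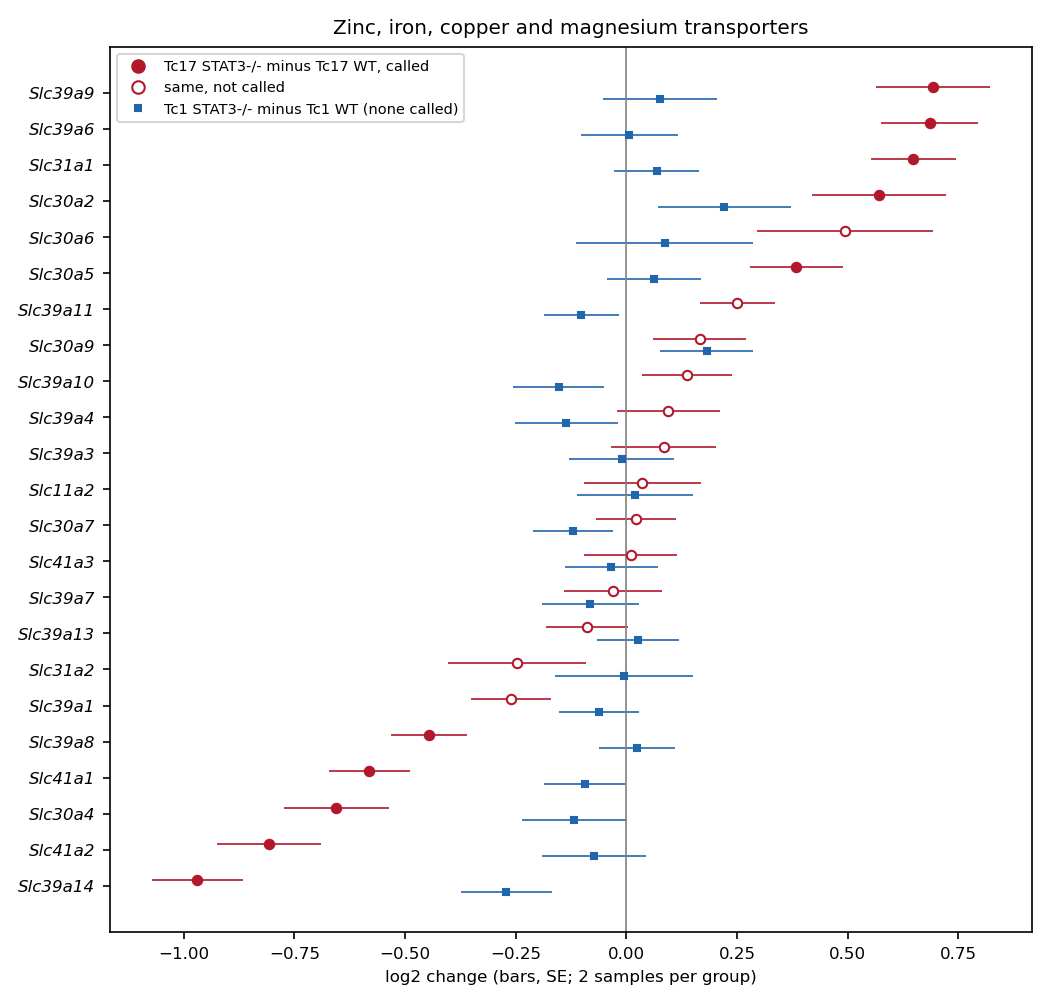
Log2 changes of the 23 metal transporters are drawn with bars of 1 SE, in red for Tc17 STAT3-/- minus Tc17 WT (filled where called) and in blue for Tc1 STAT3-/- minus Tc1 WT. In Tc17 cells they run from 0.69 for Slc39a9 to −0.97 for Slc39a14, and in Tc1 cells all lie between −0.27 and 0.22.

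Amino acid and peptide carriers showed 5 members higher and only Slc15a1 lower among 20, against 18.2% and 6.83% of all genes tested. The class median was 0.24. The median stayed above 0 under the 3 scalings, at 0.12, 0.18 and 0.12, and the calls were then 3 higher and 1 lower in each. Slc38a2, a sodium-coupled carrier of small neutral amino acids such as glutamine and alanine, read 9.25, 9.34 and 9.39 in Tc17 STAT3-/- cells against 8.83, 8.81 and 8.37 in Tc17 WT cells. The genotypes did not overlap (0.60 ± 0.11, adjusted p = 0.00448, and 0.0504 without replicate 2 of Tc17 STAT3-/-). Slc43a2 and Slc43a1, which carry large neutral amino acids without sodium, changed by 0.53 ± 0.12 and 0.50 ± 0.09 (adjusted p = 0.0142 and 0.00442, and 0.0521 for Slc43a1 without replicate 2 of Tc17 STAT3-/-). Slc7a6, a light chain that exchanges cationic for neutral amino acids, and Slc3a2, the heavy chain (CD98) that it and Slc7a5 need, gave 0.40 and 0.28 (adjusted p = 0.0269 and 0.0487). The last was among the weakest calls: Slc3a2 lost it in 15 of 21 alternatives.

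The other amino acid carriers that T cells are known for did not pass the test in Tc17 cells. Slc7a5, the leucine carrier with the highest group mean of its class, had 0.17 with a 95% interval of −0.08 to 0.43. Slc1a5, the glutamine exchanger, had 0.30 (0.03 to 0.57, adjusted p = 0.0972), Slc38a1 0.34 (adjusted p = 0.0733), Slc1a4 0.38 (adjusted p = 0.0799) and the arginine and lysine importer Slc7a1 0.32 (adjusted p = 0.0646). Slc15a4, a peptide and histidine carrier of the lysosome, had 0.20 (−0.15 to 0.55). Slc7a11, the cystine importer, lay below the level filter.

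**Figure D4:**
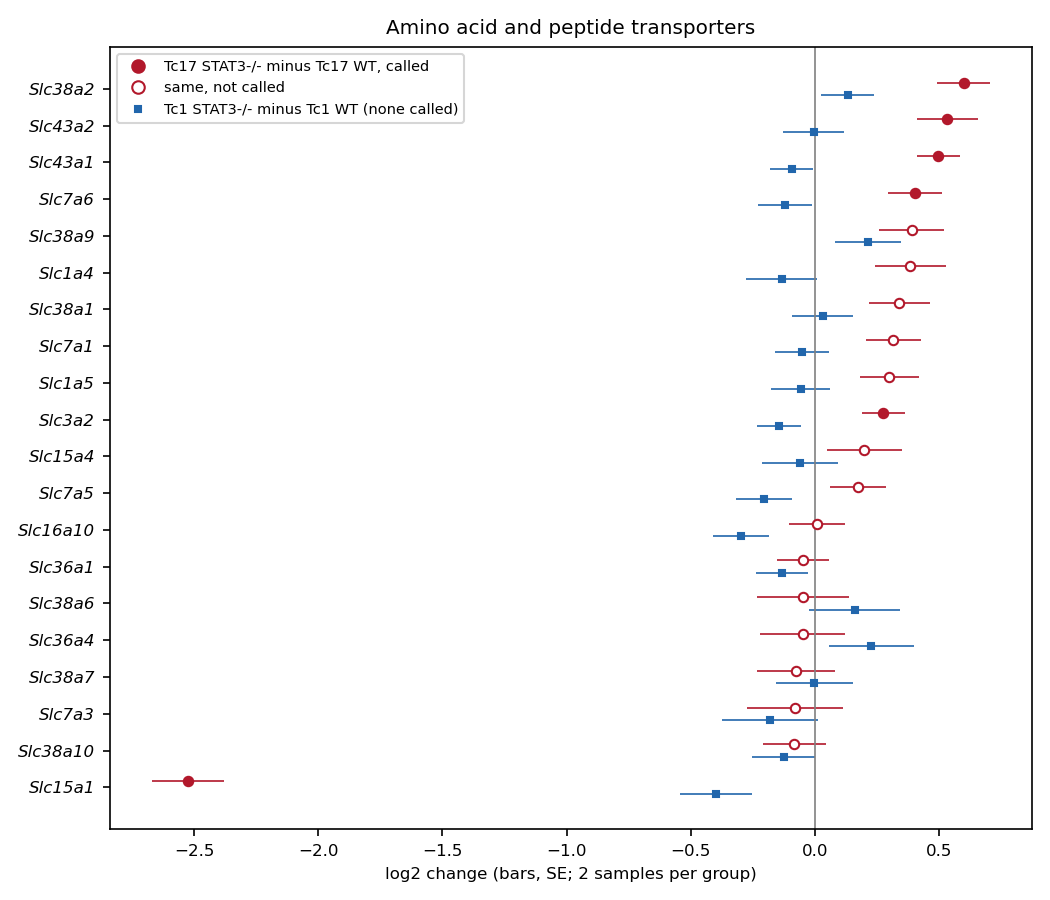
Log2 changes of the 20 amino acid and peptide transporters are drawn with bars of 1 SE, in red for Tc17 STAT3-/- minus Tc17 WT (filled where called) and in blue for Tc1 STAT3-/- minus Tc1 WT. Apart from Slc15a1 at −2.52, the Tc17 changes lie between −0.08 and 0.60.

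The urea transporter Slc14a1, known from red blood cells and the kidney, had the largest upward change of all members. It read 7.12, 7.10 and 7.20 in Tc17 STAT3-/- cells, 5.66, 5.82 and 5.44 in Tc17 WT cells, 7.50, 7.18 and 6.58 in Tc1 STAT3-/- cells and 7.44, 7.19 and 6.52 in Tc1 WT cells. Tc17 WT was the low group, and the other 3 overlapped, with both Tc1 technical arrays below their biological arrays. The change in Tc17 cells was 1.49 ± 0.22 (adjusted p = 0.00186). Of 5 erythroid markers 1 was on the array with a symbol of its own, Epb42, which averaged 3.18 or less in every group. Slc35g1 and Slc35e4, which have no settled substrate, moved apart, with 0.81 ± 0.13 (adjusted p = 0.00272) and −0.40 ± 0.12 (adjusted p = 0.0459). The second probe set of Slc35e4 gave 0.04, so its change was seen on 1 of 2 probe sets. Slc35e1, with the highest group mean of these 12 carriers, had 0.01.

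Of 10 vitamin carriers 3 were called higher and none lower, the other 7 not being called, and the members ran from −0.29 to 1.30. Over all genes tested 18.2% were higher and 6.83% lower. The class median of 0.16 shrank to 0.04, 0.08 and 0.03 under the 3 scalings, with the same count of calls. Slc52a3, which imports riboflavin, the precursor of the flavin cofactors, read 7.56, 7.31 and 7.64 in Tc17 STAT3-/- cells, 6.37, 6.26 and 5.85 in Tc17 WT cells, 7.64, 7.41 and 7.77 in Tc1 STAT3-/- cells and 7.75, 7.63 and 7.70 in Tc1 WT cells. As with Slc14a1, Tc17 WT stood below 3 groups that overlapped, and the change in Tc17 cells was 1.30 ± 0.12 (adjusted p = 0.000126). Slc23a2, the sodium-driven importer of vitamin C, changed by 0.55 ± 0.09 (adjusted p = 0.00343), seen on the brighter of its 2 probe sets, the other being at 2.79 in Tc17 STAT3-/- and 2.73 in Tc17 WT cells. Slc46a3, a lysosomal carrier related to the folate importer Slc46a1, gave 0.50 (adjusted p = 0.00843) but 0.26 at the lowest over the alternatives. Slc46a1 and Slc19a1, the folate importers, had −0.29 and 0.11 and were not called, nor was Slc48a1, the heme carrier with the highest group mean of the class, at 0.17.

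Among the ions and phosphate, 5 of 16 members were higher and Slc4a11 was the only one lower, against 18.2% and 6.83% of all genes tested. Of the phosphate importers, Slc20a2 read 6.84, 6.85 and 6.78 in Tc17 STAT3-/- cells and 6.27, 6.25 and 5.91 in Tc17 WT cells (0.65 ± 0.09, adjusted p = 0.00165), and its call held in all 21 alternatives. Slc20a1 gave 0.35 (adjusted p = 0.0265), a call lost in 10 of 21 alternatives, the 3 scalings among them, with a change of 0.19 at the lowest. Slc26a10, of the anion exchanger family, read 6.88, 6.73 and 6.71 in Tc17 STAT3-/- cells, 6.25, 6.15 and 5.82 in Tc17 WT cells, 5.81, 5.52 and 5.85 in Tc1 STAT3-/- cells and 5.95, 5.88 and 5.81 in Tc1 WT cells. Tc17 STAT3-/- lay above every other array, so this gene, unlike Slc14a1 and Slc52a3, was not at the Tc1 level in these cells (0.69 ± 0.12, adjusted p = 0.00347). Slc9a9, an endosomal sodium/proton exchanger, and Slc12a2, which brings in sodium, potassium and chloride, had 0.42 and 0.37 (adjusted p = 0.0444 and 0.0406), and lost these calls in 10 and 13 of 21 alternatives. The potassium/chloride exporters Slc12a7 and Slc12a4 both had −0.39 without a call. With the array median subtracted the class held 2 higher and 5 lower, and with quantile normalization 2 and 3.

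Mitochondrial carriers were the largest class, with 33 members (Slc25a17 is peroxisomal). Of these, 6 were higher and 1 lower around a median of 0.15, against 18.2% and 6.83% of all genes tested. With the array median subtracted the calls were 3 and 1 and the median was 0.03, and with quantile normalization and cyclic loess the calls were 4 and 1 in each, with medians of 0.07 and 0.03. The calcium-regulated exchangers of ATP-magnesium for phosphate moved apart. Slc25a24 read 7.01, 7.17 and 6.67 in Tc17 STAT3-/- cells, 7.94, 7.94 and 7.51 in Tc17 WT cells, 7.66, 7.77 and 7.62 in Tc1 STAT3-/- cells and 7.90, 7.90 and 7.67 in Tc1 WT cells, so that Tc17 STAT3-/- was the low group and did not overlap the rest. Its change was −0.87 ± 0.10 (adjusted p = 0.000616). Slc25a23 of the same subfamily read 8.06, 8.32 and 7.73 in Tc17 STAT3-/- cells and 7.56, 7.46 and 7.08 in Tc17 WT cells (0.63 ± 0.15, adjusted p = 0.0176, and up to 0.0972 without either Tc17 STAT3-/- replicate or replicate 2 of Tc17 WT), and Slc25a25, also of this subfamily, had 0.29 (adjusted p = 0.0639).

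Larger rises were seen in a pair of mitochondrial family members. Slc25a45 read 6.88, 6.84 and 6.73 in Tc17 STAT3-/- cells and 5.85, 6.11 and 5.58 in Tc17 WT cells (0.99 ± 0.14, adjusted p = 0.00185), and Slc25a16 changed by 0.71 ± 0.10 (adjusted p = 0.00141). The ornithine carrier Slc25a15, the iron carrier Slc25a28 and the ADP/ATP exchanger Slc25a5, which had the highest group mean of the class, gave 0.31, 0.29 and 0.28 (adjusted p = 0.034, 0.0484 and 0.0489), and each lost the call in 10 or more of 21 alternatives. Slc25a1, the citrate exporter, and Slc25a37, the other iron carrier, were not called, at 0.21 and 0.31.

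Nucleoside and nucleobase carriers had 2 of 6 members called higher, against 18.2% of all genes tested. Slc28a2, the sodium-driven purine nucleoside importer, read 5.97, 6.20 and 6.30 in Tc17 STAT3-/- cells and 5.58, 5.74 and 5.20 in Tc17 WT cells (0.58 ± 0.14, adjusted p = 0.0163, and up to 0.131 without replicate 2 of either Tc17 group). Slc29a1, the equilibrative nucleoside carrier, read 7.94, 7.83 and 7.98 in Tc17 STAT3-/- cells and 7.53, 7.35 and 7.04 in Tc17 WT cells (0.56 ± 0.12, adjusted p = 0.0122), but its dim second probe set gave −0.15, and the mean of both was not called. Slc43a3, the purine nucleobase carrier with the highest group mean of the class, had 0.17 without a call. The class median was 0.21, and 0.09, 0.18 and 0.14 under the 3 scalings.

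The 14 carriers of nucleotide sugars and sulfate donors into the Golgi all passed the level filter, and their median was 0.25 (0.13 to 0.18 under the 3 scalings). Of these, 1 was called higher, Slc35b2, which carries the sulfate donor PAPS (0.52 ± 0.12, adjusted p = 0.0134), and 1 lower, Slc35d3 (−0.58 ± 0.16, adjusted p = 0.0315), whose call was lost without any 1 of the 4 Tc17 samples, with an adjusted p of up to 0.197. Over all genes tested 18.2% were higher and 6.83% lower. With the array median subtracted the class held 1 higher and 3 lower, and with quantile normalization 1 and 2. Slc35a1, which supplies sialic acid for glycans, and Slc35a4, with the highest group mean of the class, had 0.24 and 0.35 without a call. Vesicle and lysosome carriers held 2 members, which moved apart. Slc17a9, which loads ATP into vesicles, read 7.36, 7.41 and 7.44 in Tc17 STAT3-/- cells and 8.19, 8.07 and 7.47 in Tc17 WT cells, where the technical array was near the STAT3-/- values (−0.59 ± 0.14, adjusted p = 0.0156, and up to 0.0973 without either Tc17 STAT3-/- replicate). Slc17a5, the lysosomal sialic acid exporter, read 7.45, 7.46 and 7.69 in Tc17 STAT3-/- cells and 6.97, 6.93 and 6.32 in Tc17 WT cells (0.72 ± 0.13, adjusted p = 0.00576, and 0.0547 without replicate 2 of Tc17 STAT3-/-).

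None of the 9 carriers of lipids, choline and organic ions was called, against 25.1% of all genes tested, with changes from −0.21 to 0.28. They included the fatty acid carrier Slc27a4 at −0.16, the choline carrier Slc44a1 at 0.20 and Slc44a2, with the highest group mean of the class, at −0.05. The taurine carrier Slc6a6 and the creatine carrier Slc6a8 had −0.13 (−0.42 to 0.17) and −0.19 (−0.40 to 0.02). Of 4 genes that bear an Slc symbol without being carriers, the scaffold Slc9a3r1 was higher by 0.43 (adjusted p = 0.0185). Among the 43 calls, 17 held in every alternative that tested the gene: Slc4a11, Slc15a1, Slc39a14, Slc2a6, Slc25a24, Slc41a2, Slc41a1, Slc14a1, Slc52a3, Slc25a45, Slc35g1, Slc25a16, Slc26a10, Slc39a6, Slc20a2, Slc31a1 and Slc23a2. These numbered 21, apart from 20 for Slc2a6 and Slc41a2 and 19 for Slc23a2. Each of the other 26 was lost on leaving out at least 1 sample. The number of calls was 21 without replicate 2 of Tc17 STAT3-/-, 23 without its replicate 1 and 66 without replicate 1 of Tc17 WT, each of which leaves that group with 1 sample, assumed to vary like the others.

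In Tc1 cells no member passed the test between STAT3-/- and WT, against 6 of 9862 genes tested (0.0608%, with 0.0203% higher and 0.0406% lower), and the count stayed 0 in all 21 alternatives. At an unadjusted limma p below 0.05 there were 10 of 162 members, against 370 of all 9862 genes tested. The median change was −0.05 over the members and 0.01 over all genes. The lowest p among members was that of Slc17a5, which read 7.50, 7.38 and 7.73 in Tc1 STAT3-/- cells and 7.03, 6.76 and 6.79 in Tc1 WT cells. The groups did not overlap, and the change was 0.63 ± 0.13 (adjusted p = 0.429), close in size to that in Tc17 cells. Slc35d3, with −0.52 in Tc1 (adjusted p = 0.998) and −0.58 in Tc17 cells, was likewise similar in both cultures, and the mitochondrial dicarboxylate carrier Slc25a10 had −0.35 in Tc1 cells (adjusted p = 0.81). The lead genes of the Tc17 comparison had −0.12 (Slc4a11), −0.40 (Slc15a1), 0.05 (Slc14a1) and −0.09 (Slc52a3) in Tc1 cells.

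Whether the genotype changed a transporter differently in the 2 cultures was tested by the difference of the 2 genotype changes, Tc17 minus Tc1. It passed for 19 members, 13 above and 6 below 0, which is 11.7% of the members against 6.85% of all genes tested (4.48% above and 2.37% below), and the medians were 0.18 and 0.12. With the array median subtracted the split was 8 and 9, with quantile normalization 10 and 9, and with cyclic loess 8 and 10. Slc4a11 (−2.87 ± 0.14, adjusted p = 1.61e-05), Slc15a1 (−2.13 ± 0.21, adjusted p = 0.000568) and Slc52a3 (1.39 ± 0.16, adjusted p = 0.00182) passed in all 20 alternatives. The other 16 each lost the call in at least 1, and leaving out 1 sample gave between 4 members (without replicate 1 of Tc1 WT, or without either Tc17 STAT3-/- replicate) and 41 (without replicate 1 of Tc17 WT). By substrate, 4 of the 19 were metal carriers (Slc39a14 and Slc41a2 below 0, Slc39a6 and Slc31a1 above), 4 carried ions or phosphate, 3 vitamins, 3 belonged to mitochondria and 2 carried amino acids or peptides. For Slc17a5 the difference was 0.09 ± 0.19 (−0.34 to 0.52). Of the 19, Slc4a11, Slc15a1 and Slc2a6 were members only through Tc17 groups, Slc4a11 through Tc17 WT alone. Their differences are thus bound up with how the members were chosen.

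Between the cultures, 34 members differed between Tc17 WT and Tc1 WT cells, 10 higher (7.01% of all genes) and 24 lower (18%) in Tc17, together 21% of the members against 25% of all genes tested. The median was −0.10 for the members and −0.10 for all genes, and the split again moved with scaling, to 19 higher and 15 lower after subtracting the array median, 14 and 16 after quantile normalization and 18 and 14 after cyclic loess. Leaving out 1 sample gave from 15 (without replicate 1 of Tc1 WT) to 58 calls (without replicate 1 of Tc17 WT). This comparison shares its Tc17 WT samples with the comparison of genotypes in Tc17 cells, so the members' values are set side by side below without a test of their likeness.

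Higher in Tc17 WT than in Tc1 WT were the peptide carrier Slc15a1 (3.27 ± 0.15, adjusted p = 2.83e-06), Slc4a11 (2.88 ± 0.10, adjusted p = 4.73e-07), Slc2a6 (1.31 ± 0.12, adjusted p = 0.000167), the ATP loader Slc17a9 (0.82) and 5 metal carriers: Slc39a14 (0.81), Slc41a1 (0.60), Slc41a2 (0.41), Slc39a8 (0.33) and Slc39a1 (0.30). In Tc1 WT cells Slc15a1, Slc4a11 and Slc2a6 averaged 4.74, 4.94 and 4.67, under the level filter. They were members only through Tc17 groups, Slc4a11 through Tc17 WT alone, so these 3 differences too are bound up with how the members were chosen. The potassium/chloride exporter Slc12a7 completed the 10 with 0.56 (adjusted p = 0.0337). It read 6.44, 6.58 and 6.89 in Tc17 WT cells and 6.21, 5.87 and 5.84 in Tc1 WT cells, with no overlap. In STAT3-/- cells the same culture difference was 0.01 for Slc4a11, 0.25 for Slc2a6, 0.11 for Slc39a14 and 0.35 for Slc17a9, none of them called.

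Lower in Tc17 WT were Slc14a1 (−1.50 ± 0.22, adjusted p = 0.00181) and Slc52a3 (−1.50 ± 0.12, adjusted p = 4.97e-05), followed by Slc28a2 (−0.89), Slc46a3 (−0.78), Slc25a45 (−0.70), Slc25a16 (−0.63), Slc20a2 (−0.60), Slc25a33 (−0.57), Slc38a2 (−0.55) and Slc31a1 (−0.51). Of the 34 calls, 13 held in every alternative that tested the gene (21, apart from 20 for Slc2a6 and 19 for Slc23a2), and that of Slc31a1 was lost with the Tc17 WT technical array left out. Among the amino acid carriers 5 were lower, Slc38a2, Slc43a2, Slc3a2, Slc7a6 and Slc43a1, with changes of −0.29 to −0.55. Slc16a1, the lactate and pyruvate carrier, read 9.38, 9.21 and 8.85 in Tc17 WT and 9.55, 9.48 and 9.91 in Tc1 WT cells (−0.41 ± 0.12, adjusted p = 0.0414), and lost the call in 13 of 21 alternatives. Slc7a5 and Slc2a1 were not called, at −0.33 (−0.59 to −0.07, adjusted p = 0.063) and −0.07 (−0.29 to 0.14).

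Without STAT3 the cultures differed in 3 members, 2 higher (1.05% of all genes) and 1 lower (1.01%) in Tc17, or 1.85% of the members against 2.07% of all genes tested. Slc15a1 was still higher in Tc17 STAT3-/- than in Tc1 STAT3-/- cells, by 1.14 ± 0.15 (adjusted p = 0.00427, and 0.0552 without replicate 2 of Tc17 STAT3-/-). Slc26a10 was higher by 1.06 ± 0.12 (adjusted p = 0.00204), against 0.22 ± 0.12 in WT cells, and its call held in all 21 alternatives. Slc25a24 was lower by 0.71 on the log2 scale (SE 0.10, adjusted p = 0.0079), against −0.01 in WT cells, and lost the call without any 1 of the 4 STAT3-/- samples, with an adjusted p of up to 0.112. For Slc14a1 and Slc52a3 the difference was −0.06 ± 0.22 and −0.10 ± 0.12. Slc15a1 averaged 4.35 in Tc1 STAT3-/- cells, under the level filter, and was a member only through Tc17 groups. Its difference here too is bound up with how the members were chosen.

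**Figure D5:**
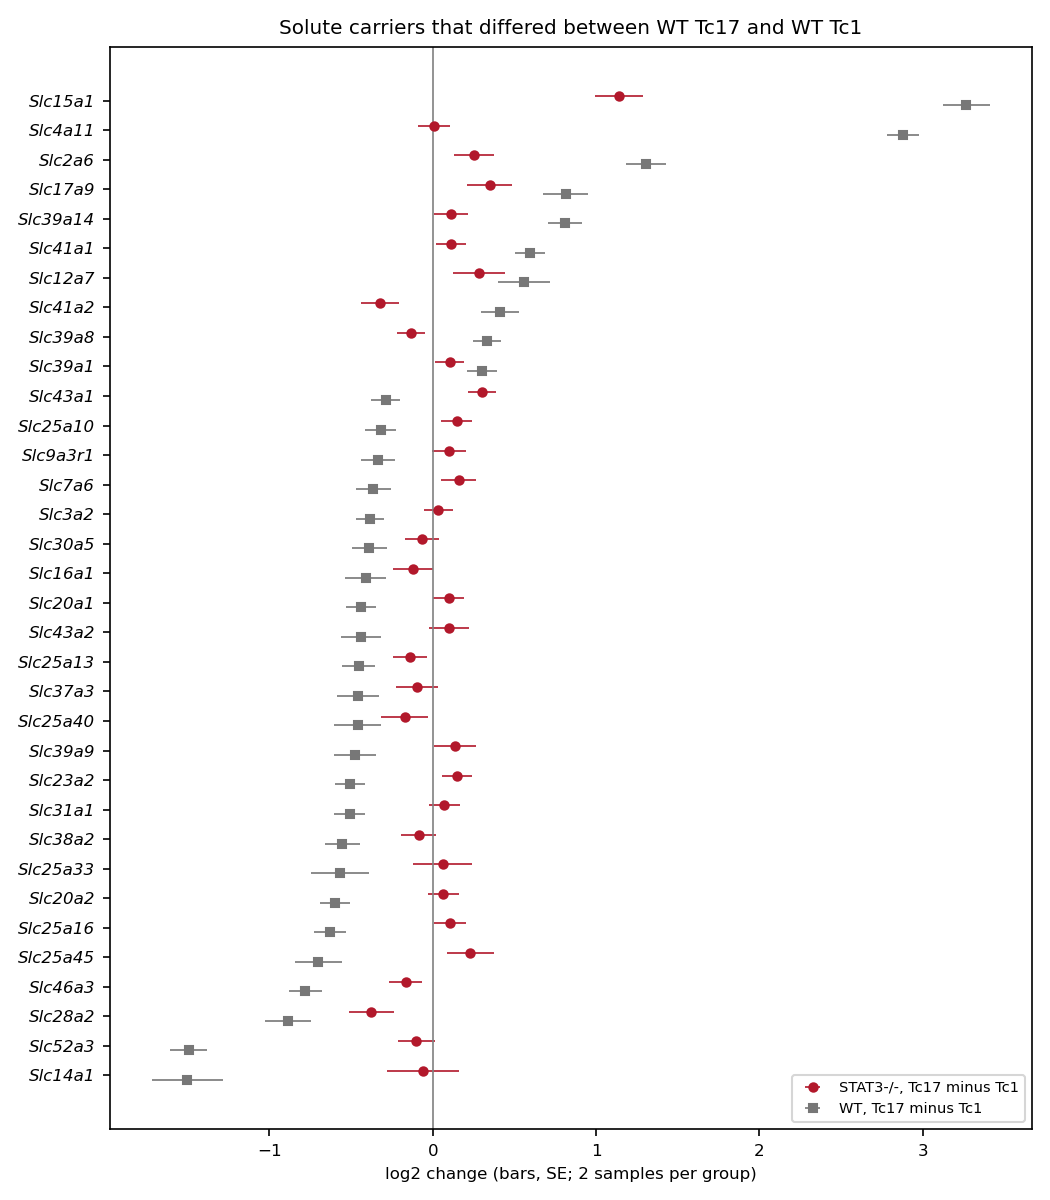
The 34 members that differed between Tc17 WT and Tc1 WT cells are drawn with their log2 change and 1 SE, in red for STAT3-/- cells and in grey for WT cells, Tc17 minus Tc1 in both. The WT changes run from 3.27 for Slc15a1 to −1.50 for Slc14a1, and of the red points only Slc15a1 was called.

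Genes that work with these carriers were read from lists of other transport genes, whose counts stand against 25.1% of all genes tested that were called in Tc17 cells (18.2% higher and 6.83% lower). Of 13 tested carriers with symbols outside the Slc series, the mitochondrial outer membrane proteins Mtch1 and Mtch2 were higher in Tc17 STAT3-/- than in Tc17 WT cells (0.41 and 0.38, adjusted p = 0.04 and 0.0152), and the organic anion carrier Slco3a1 was lower (−0.57, adjusted p = 0.00642). Of 11 partners and drivers of transport, 4 were higher: the sodium pump subunits Atp1b1 (1.01) and Atp1b3 (0.33), the ubiquitin ligase Nedd4l (0.86), which removes carriers from the membrane, and the kinase Stk39 (0.56), which activates Slc12a2. Atp1b1 averaged 5.42 in Tc17 STAT3-/- cells, and 4.40, 4.78 and 4.81 in Tc17 WT, Tc1 STAT3-/- and Tc1 WT cells. It had passed the level filter through Tc17 STAT3-/- alone, so its change is bound up with how the tested genes were chosen. Emb, 1 of the chaperones that bring Slc16a1 to the surface, was lower, with 9.07 in Tc17 STAT3-/- and 10.21 in Tc17 WT cells (−1.14, adjusted p = 0.000132), while the other, Bsg, had 0.12 without a call. Of 4 regulators of transporter genes, Hif1a, which drives glucose carriers in low oxygen, was lower with 8.97 and 9.86 (−0.89, adjusted p = 0.000345), and Myc, Atf4 and Mtf1 were not called. In Tc1 cells none of these genes was called between genotypes by limma, with 0 of 13 carriers, 0 of 11 partners and 0 of 4 regulators at an unadjusted p below 0.05.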

How the data were processed

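Affymetrix arrays of biotin-labelled total RNA were hybridised for 12 samples in 4 groups. The authors deposited log2 values for 41345 probe sets, with RMA and Partek named per the submitters' processing notes (for their roles and versions: not given in the sources used here). As deposited, the median of the genes tested ran from 6.68 on the Tc17 WT technical array to 7.01 on Tc1 STAT3-/- biological array 1. A shift shared by most genes cannot be told from one left by the processing, and the number of arrays limits the precision. Symbols came from the platform annotation: 23521 probe sets had 1 symbol, 1814 several and 16010 none, and 23328 of the first matched RefSeq by Entrez ID. Probe sets with several symbols were not used, which left out 18 that held a solute carrier symbol, those of Slc30a1 and Slc5a3 among them, and Slc4a7 was not analysed here. Where a gene had several probe sets, the one with the highest mean was used, and genes with a mean of at least 5 in 1 or more groups (9862 of 22180) were tested.

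Averaging each technical array into replicate 2 left 8 samples. A limma 3.58.1 fit of all of them (R 4.3.3, 4 residual degrees of freedom, moderated by eBayes) gave 5 contrasts, and p-values were adjusted by Benjamini-Hochberg over all genes tested, with a call at an adjusted p below 0.05. The script was tested on simulated data. Substrate classes came from the family number in the symbol. Members were named where called (the 10 largest changes in each direction with values), where well known in T cells, where highest in a class or nearest the level filter. The members, classes and lists were chosen with earlier results of these data known. Alternatives covered the technical arrays, the level filter (none, or 6), the probe sets, 3 scalings, the variance model, the samples in the fit, the replicate number as a block and leaving out each sample. Differences between samples 1 and 2 correlated between groups by 0.098 to 0.455. The highest value was that of Tc1 STAT3-/- with Tc1 WT, while Tc17 STAT3-/- with Tc17 WT had 0.099. No label ties the numbers to animals or cultures, so the samples were not treated as paired.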

Additional observations from a re-analysis of the deposited data

Results flagged for a closer look

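For 19 transporters the change between genotypes differed between the cultures in a test of the difference itself (STAT3-/- minus WT in Tc17, less the same in Tc1, on the log2 scale, limma with Benjamini-Hochberg adjustment). The values below 0 were −2.87 for Slc4a11, −2.13 for Slc15a1, −1.06 for Slc2a6, −0.73 for Slc41a2, −0.70 for Slc25a24 and −0.70 for Slc39a14. In these 6 the Tc17 change was the more negative one. Slc4a11, Slc15a1 and Slc2a6 had passed the level filter only through Tc17 groups, so their values are bound up with how the members were chosen. The values above 0 were 1.44 for the urea carrier Slc14a1, 1.39 for the riboflavin importer Slc52a3, 0.93 for Slc25a45, 0.84 for Slc26a10, 0.74 for Slc25a16, 0.73 for Slc29a1, 0.68 for Slc39a6, 0.66 for Slc20a2, 0.66 for Slc23a2, 0.61 for Slc46a3, 0.59 for Slc43a1, 0.58 for Slc31a1 and 0.54 for Slc20a1. Adjusted p-values ran from 1.61e-05 for Slc4a11 to 0.0454 for Slc20a1. The share of such calls was 11.7% of the members and 6.85% of all genes tested.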

How the results depend on the processing

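Over 21 alternatives (20 for the difference between cultures) no called result changed sign. Calls in Tc17 STAT3-/- against Tc17 WT numbered 43, and 21 to 66 without 1 sample. The count was 0 in Tc1 under all of them. The difference of the genotype changes gave 19 calls, 7 with no filter on dim genes and 4 to 41 without 1 sample. Tc17 WT against Tc1 WT gave 34 calls, 19 with no filter, 18 with only the 4 samples of that comparison in the fit and 15 to 58 without 1 sample. Tc17 STAT3-/- against Tc1 STAT3-/- gave 3 calls, 7 with the technical arrays left out and 1 to 4 without 1 sample. The filter and the smaller fit change how many genes or samples enter, and the cause of the other moves was not tested. With the replicate number as a block the counts were 51, 0, 25, 44 and 4, in the order above. Without the Tc17 WT technical array, which stood apart, the Tc17 comparison still gave 43 calls, 28 higher and 15 lower, of which 38 were shared. Of the values for single members under an alternative, 4015 kept direction and side of the threshold, 457 lost the call and 73 gained it. Between biological arrays 1 and 2 of a group the SD of the members' differences was 0.142 to 0.179, against 0.207 to 0.306 between the second biological array and its technical repeat, so changes of this size are at the limit of 2 samples per group.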

Other observations

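Below the level filter, 199 solute carriers were fitted with all genes, and 2 of them were called in Tc17 STAT3-/- against Tc17 WT cells, against 1.6% of all 12318 genes below the level. At such levels the size of a difference is not read from the values. Slc15a3, a lysosomal carrier of peptides and histidine and a relative of Slc15a1, averaged 3.69 in Tc17 STAT3-/- cells and 4.58 in Tc17 WT cells (adjusted p = 0.00702), and 3.22 in Tc1 STAT3-/- and 3.44 in Tc1 WT cells. Slc2a4, the insulin-regulated glucose carrier of muscle and fat, averaged 3.64 in Tc17 STAT3-/- and 4.25 in Tc17 WT cells (adjusted p = 0.0376). Both were also called higher in Tc17 WT than in Tc1 WT cells, as were Slc22a21 and Slc6a13, making 4 of the 199 against 1.67% of all genes below the level. Slc40a1, the iron exporter, and Slc7a11, the cystine importer, stayed below the filter.

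Slc17a5 was chosen for a look at its neighbours after its values were seen, because STAT3-/- minus WT was above 0 in both cultures (0.72 in Tc17, and 0.63 without a call in Tc1). It lies on mouse chromosome 9. Of the 30 tested genes nearest to it, 9 were called between genotypes in Tc17 cells (30%, against 25.1% of all genes tested) and 1 in Tc1 cells. The direct neighbours Eef1a1 and Cox7a2 had −0.03 and 0.16 in Tc17 and 0.06 and −0.14 in Tc1, without a call. The gene called in Tc1 was Bckdhb, with 9 tested genes between it and Slc17a5. Bckdhb had 1.38 in Tc17 and 1.08 in Tc1 (adjusted p = 0.000221 and 0.0403). Outside those 30, Nt5e, with 16 tested genes between, had −1.01 and −1.30 (adjusted p = 0.00185 and 0.022). These 2 genes were picked after their values were seen, and 6 of 9862 genes were called in Tc1.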
